A study of Mus musculus with 8 samples.

Results

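Cytosolic ribosomal protein genes, which encode the protein subunits of the ribosomes that translate most cellular mRNA, were examined in sciatic nerves of *Nae1* conditional knockout (cKO) and WT mice. Members were the genes whose symbols begin with Rpl (large subunit) or Rps (small subunit) followed by a protein number with at most a closing a, x or l, by p0 to p2, or by a. Pseudogenes named with the suffix -ps were left out. This gave 82 of the 53090 genes in the tables, 50 of the large and 32 of the small subunit. By annotation 80 of them are protein coding, while *Rps4l* and *Rpl6l* are listed as processed pseudogenes.

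Total RNA of sciatic nerves from 4 *Nae1* cKO and 4 WT mice, all 7 days old, was sequenced after depletion of ribosomal RNA. In the cKO mice both alleles of *Nae1* were floxed (Nae1 f/f), and a Cre recombinase expressed in Schwann cells deletes *Nae1* there. The WT mice were littermates without Cre that carried 1 or 2 floxed alleles (Nae1 f/+ and Nae1 f/f). Nerve RNA also comes from fibroblasts, macrophages, endothelium and other cells that keep *Nae1*, and in such bulk samples fewer cells of a type and less RNA per cell cannot be told apart. *Nae1*, which encodes the regulatory subunit of the enzyme that activates the ubiquitin-like protein NEDD8, was at 51.8 ± 6.56 CPM in cKO nerves and 82.9 ± 5.07 CPM in WT nerves (CPM, counts scaled to 1000000 per library after TMM scaling; SD, n = 4 each). A two-sided exact permutation test gave p = 0.0286, below which groups of 4 and 4 cannot go.

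Each library held 12962798 to 14766770 expected counts. Markers of other cells differed between the genotypes: of 15 macrophage markers 10 were higher in cKO nerves (edgeR's quasi-likelihood test, adjusted p under 0.05; summed level 457 to 595 CPM in cKO and 266 to 302 CPM in WT), of 16 mitosis markers 15 were higher (960 to 1778 CPM in cKO and 610 to 845 CPM in WT), and of 17 skeletal muscle markers 6 were lower, and 0 without cKO K2 (67.2 to 209 CPM in cKO and 139 to 2248 CPM in WT). The muscle sum was largest in WT L4 (2248 CPM) and WT K1 (1385 CPM). Of 11 fibroblast markers 4 were higher (19614 to 22021 CPM in cKO and 15786 to 19934 CPM in WT), and of 10 endothelial markers 3 were lower. Of 3 tested markers each of other leukocytes and of erythroid cells 1 was higher. The erythroid one was *Tfrc* (log2 fold change 0.84). *Alas2* (−0.08, adjusted p = 0.856) and *Slc4a1* (−0.43, adjusted p = 0.559) did not pass. Of 11 Schwann cell lineage markers 2 were higher and 4 lower, with log2 fold changes of −1.90 to 0.80 and a median of −0.08. Their summed level, in which the most abundant markers weigh most, was 6141 to 7131 CPM in cKO and 14069 to 23522 CPM in WT nerves, with no overlap. Of all genes tested, 14.1% were called higher and 12.3% lower in cKO nerves. The part of these cell markers in the results below was not tested. No defining marker was at 0 in every nerve of a group.

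As background, a ribosome holds one copy of most of its proteins, and their mRNAs are kept at similar levels by shared control. Their transcripts begin with a C followed by an unbroken run of pyrimidines (C or T), the 5′ terminal oligopyrimidine or TOP sequence, through which the growth-regulating kinase mTOR controls their translation by way of the RNA-binding protein LARP1. Elongation factors and several noncoding hosts of small nucleolar RNAs (snoRNAs) carry the same start. In Schwann cells, mTOR activity is known to be high in the proliferating, immature stage and to fall as myelination proceeds.

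RefSeq start sites were searched for the TOP sequence. Promoters were found for 60 of the 82 members in RefSeq's GRCm38.p6 annotation. Shown are 15 bases on each side of the annotated start of 6 members in which a run of at least 8 C or T bases, in capitals, crosses the start. Their log2 fold changes ran over 0.16 to 0.76. *Rps6*, *Rpl35*, *Rps27* and *Rps15a* were called higher in cKO nerves, and *Rps10* and *Rplp2* did not pass the test.
Rps6 (chr4:86857353-86857382, minus strand): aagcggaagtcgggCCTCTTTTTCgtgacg
Rpl35 (chr2:39005117-39005146, minus strand): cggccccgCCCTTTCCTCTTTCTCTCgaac
Rps27 (chr3:90213634-90213663, minus strand): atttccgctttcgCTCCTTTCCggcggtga
Rps15a (chr7:118116133-118116162, minus strand): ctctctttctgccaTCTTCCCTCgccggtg
Rps10 (chr17:27635230-27635259, minus strand): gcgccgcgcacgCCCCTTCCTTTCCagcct
Rplp2 (chr7:141447636-141447665, plus strand): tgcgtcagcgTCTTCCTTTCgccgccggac

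Such a run crossed an annotated start in 17 of the 60 members (28.3%), against 1240 of all 27025 genes with a promoter (4.59%). A run lay within 50 bases of a start in 52 of 60 members (86.7%), against 41.4% of all genes. Annotated starts can miss the position used in a tissue by some bases. The 2 members below, both called higher, have no run across the annotated start.
Rps4x (chrX:102189377-102189406, minus strand): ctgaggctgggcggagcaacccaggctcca
Rpsa (chr9:120127751-120127780, plus strand): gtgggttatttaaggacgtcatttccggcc

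The letters CCGGAAG, the core of sites bound by ETS-family factors, were present on either strand in the 300 bases around the start in 25 of 60 members (41.7%), against 9.93% of all genes. A run near the start was present in 44 of 50 members called higher and in 6 of 7 tested and not passed. CCGGAAG was present in 19 of 50 and in 5 of 7. Neither feature was tested against the changes.

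Per length, levels of the members were compared in TPM. Mean TPM over the 8 nerves was highest for *Rpl41* (780 TPM), whose product is the smallest protein of the ribosome, *Rps27* (696 TPM) and *Rps29* (591 TPM). It was lowest, among the protein-coding members that passed the filter on low counts, for *Rps27l* (57.7 TPM), a paralog of *Rps27*. The highest and lowest of these differed 13.5-fold. In cKO and WT nerves, *Rpl41* was at 882 ± 127 and 678 ± 60.2 TPM, *Rps27* at 894 ± 25.7 and 499 ± 58.3 TPM, and *Rps29* at 689 ± 107 and 494 ± 66.5 TPM (SD, n = 4 each). The paralogs known from testis or muscle were close to absent: *Rpl10l* had 0 counts in every nerve, which allows up to 3 counts, or 0.203 to 0.231 CPM, per nerve. *Rpl39l* had at most 8 counts and *Rpl3l*, the striated muscle form of *Rpl3*, at most 10, in WT L4. These and *Rpl6l* were not tested, which left 78 members.

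Ribosomal protein mRNAs were higher in cKO nerves as a group. Of the 78 members tested, 67 were higher and 0 lower in cKO nerves, and 11 did not pass (edgeR's quasi-likelihood test with Benjamini-Hochberg adjustment over 17090 genes, adjusted p under 0.05). Over all genes tested, 14.1% were called higher and 12.3% lower. The median log2 fold change of the members was 0.50, or 1.42-fold, beside 0.01 over all genes and 0.01 over the 4858 other genes with an effective length under 1500 bases. Log2 fold changes ran over −0.07 to 0.87, and 77 of 78 were above 0.

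The changes were small. The smallest called change was 1.16-fold, 23 members exceeded 1.5-fold and 0 exceeded 2-fold, beside 6.75% of all genes called at over 2-fold in either direction. All genes were not counted at 1.5-fold. In CPM the 4 cKO nerves all lay above the 4 WT nerves for 61 members (78.2%), against 14.9% of all genes. In TPM they did so for 56 members, but the share of all genes was not computed on that scale. None was lower at an unadjusted p under 0.05 either, and 68 were higher, at a level for which all genes were not counted. DESeq2 called 67 higher and 0 lower, and limma-voom 65 and 0, beside 14.4% and 13.9% of all genes called higher.

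The count fell when 2 WT nerves were left out. No other pair was left out, so the part of these nerves and that of the smaller group cannot be told apart. Without WT K1 and WT L4, the nerves with most muscle RNA, 19 of 79 members were called higher and 0 lower, with a median of 0.41, while 7.17% of all genes were called higher with only 2 WT nerves left. Calls lost there included *Rpl5* (0.47, adjusted p = 0.0518) and *Rps27* (0.66, adjusted p = 0.166). Without cKO K2 the counts were 65 and 0 and the median was 0.42, beside 15.7% of all genes called higher.

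**Figure D1:**
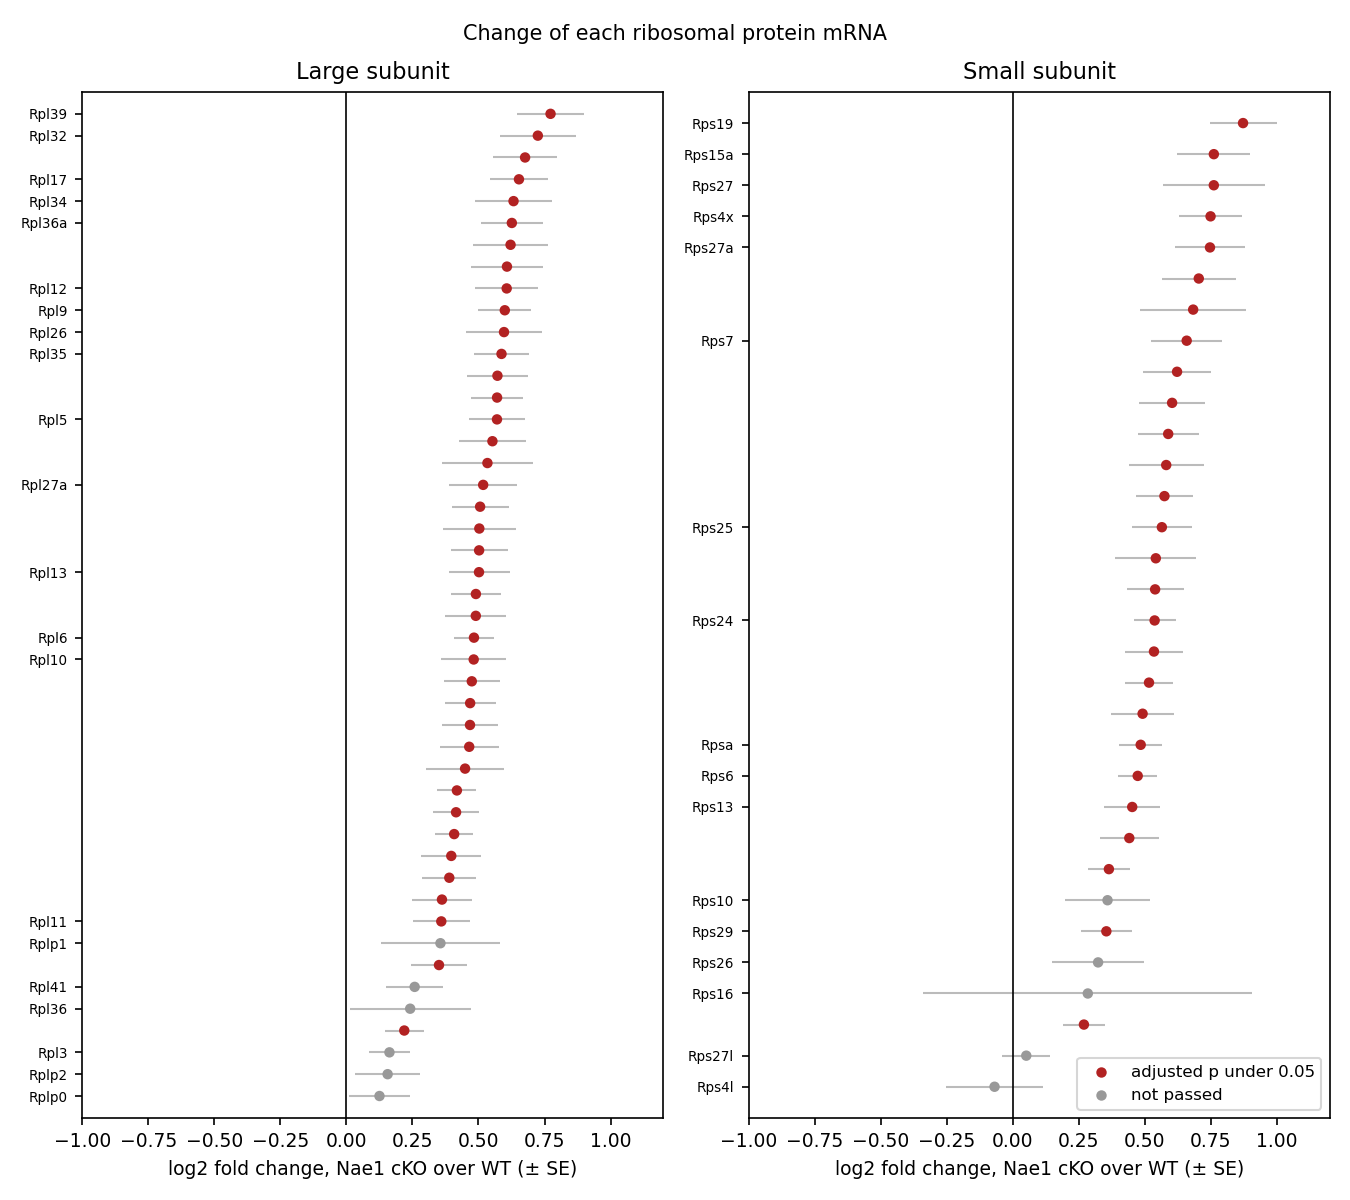
Log2 fold change (Nae1 cKO over WT) of each of the 78 ribosomal protein genes tested, by subunit, with standard errors from edgeR; red points passed an adjusted p of 0.05 and grey points did not, and genes described in the text are labelled. All but Rps4l lie to the right of 0, and the wide bar of Rps16 stands apart from the rest.

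Both subunits took part. In the large subunit 40 of 46 members were higher, with a median log2 fold change of 0.49. In the small subunit 27 of 32 were higher, with a median of 0.54. Across members the change bore little relation to effective length (Spearman's rho = −0.144) or to level (rho = 0.03; n = 78 genes of the same libraries, given as a description).

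In the small subunit, *Rps19* had the largest change of all members. *Rps19*, a protein of the subunit's head that is mutated in Diamond-Blackfan anemia in humans, lies on chromosome 7 of GRCm38, from 24884371 to 24889806 on the plus strand. It was at 336, 241, 272 and 264 CPM in cKO nerves K2, L1, L5 and L8, against 145, 189, 137 and 137 CPM in WT nerves K1, L3, L4 and L9. Every cKO nerve was above every WT nerve, and K2 was the highest. The genotypes differed by 0.87 on the log2 scale (SE 0.13, adjusted p = 0.00036), which stayed past the threshold in all 26 alternatives, at 0.74 to 1.03.

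*Rps4x*, an X-linked protein of the small subunit, followed the same order. It was at 752, 526, 555 and 535 CPM in cKO nerves K2, L1, L5 and L8, against 341, 403, 324 and 341 CPM in WT nerves K1, L3, L4 and L9. The groups did not overlap and differed by 0.75 on the log2 scale (SE 0.12, adjusted p = 0.00064). Its autosomal relative *Rps4l* was at 6.62 to 11.3 CPM in cKO and 7.75 to 11 CPM in WT nerves, with a log2 fold change of −0.07 (SE 0.18, adjusted p = 0.822).

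*Rps24*, also a Diamond-Blackfan anemia gene in humans, had little spread between nerves. It was at 362, 321, 347 and 327 CPM in cKO nerves, against 211, 247, 226 and 251 CPM in WT nerves, and cKO nerves varied by 19.0 CPM (SD). The change was 0.54 on the log2 scale (SE 0.08, adjusted p = 0.00036). In TPM the groups overlapped, with cKO K2 at 414 TPM below WT L9 at 432 TPM.

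*Rps6*, the substrate of the S6 kinases and a common readout of mTOR activity as a phosphoprotein, was at 355, 320, 323 and 324 CPM in cKO nerves, against 225, 247, 226 and 254 CPM in WT nerves. All 4 cKO nerves were above all WT nerves, and the change was 0.47 (SE 0.07, adjusted p = 0.00056). On log2(TPM + 1) it was 0.60 and did not pass (limma, adjusted p = 0.0619). This assay measured the mRNA, not phosphorylation.

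*Rpsa*, which encodes the laminin-receptor-like protein of the small subunit, was at 613, 559, 587 and 584 CPM in cKO nerves, against 405, 458, 374 and 437 CPM in WT nerves. The change was 0.48 (SE 0.08, adjusted p = 0.00082), with all cKO nerves above WT in CPM but with an overlap in TPM, and on log2(TPM + 1) it did not pass (0.63, limma, adjusted p = 0.0519). *Rps27a*, whose product is ubiquitin fused to a ribosomal protein, was at 252 to 392 CPM in cKO and 164 to 202 CPM in WT nerves, a change of 0.75 (SE 0.13, adjusted p = 0.0014).

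In the large subunit, *Rpl39*, a short X-linked protein that lines the exit tunnel, changed most. It was at 243, 193, 185 and 152 CPM in cKO nerves K2, L1, L5 and L8, against 112, 129, 104 and 107 CPM in WT nerves K1, L3, L4 and L9. The groups did not overlap in CPM or TPM, and the change was 0.77 (SE 0.13, adjusted p = 0.00084). *Rpl17*, another protein near the tunnel exit, was at 306 to 428 CPM in cKO and 202 to 240 CPM in WT nerves (0.65, SE 0.11, adjusted p = 0.00084).

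*Rpl6* and *Rpl9* showed the same separation with less spread. *Rpl6* was at 443, 393, 411 and 410 CPM in cKO nerves, against 297, 323, 283 and 281 CPM in WT nerves, a change of 0.48 (SE 0.08, adjusted p = 0.00055). *Rpl9* was at 452, 357, 354 and 351 CPM in cKO nerves, against 251, 279, 231 and 239 CPM in WT nerves, a change of 0.60 (SE 0.10, adjusted p = 0.00081). In both genes the lowest cKO nerve was above the highest WT nerve. On log2(TPM + 1) *Rpl6* was at 0.59 and did not pass (limma, adjusted p = 0.0610).

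*Rpl5* and *Rpl11* bind the 5S ribosomal RNA and, when free of the ribosome, inhibit MDM2, the ligase that degrades p53. *Rpl5* was at 527 to 716 CPM in cKO and 366 to 434 CPM in WT nerves, a change of 0.57 (SE 0.11, adjusted p = 0.0018). *Rpl11* was at 185 to 259 CPM in cKO and 148 to 184 CPM in WT nerves, a smaller change of 0.36 (SE 0.11, adjusted p = 0.0278). The *Rpl11* call was lost without WT K1 (adjusted p = 0.0698), WT L4 (adjusted p = 0.0862), WT L9 (adjusted p = 0.0546) or cKO L5 (adjusted p = 0.0638), at 0.30 to 0.37 on the log2 scale. It was also lost with the nerves named L alone (0.24, adjusted p = 0.0787) and on log2(TPM + 1) (0.55, limma, adjusted p = 0.0875).

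The stalk proteins were among the large subunit members that did not pass. *Rplp0*, *Rplp1* and *Rplp2* form the acidic stalk that recruits elongation factors, and none of the 3 was called. *Rplp0* was at 1124, 776, 900 and 915 CPM in cKO nerves K2, L1, L5 and L8, against 882, 943, 743 and 839 CPM in WT nerves K1, L3, L4 and L9, so the groups overlapped. Its log2 fold change was 0.13 (SE 0.11, adjusted p = 0.464), and 0.01 without cKO K2.

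*Rplp1* was at 391, 175, 224 and 265 CPM in cKO nerves, against 223, 221, 168 and 211 CPM in WT nerves, with K2 alone far above the rest. Its log2 fold change was 0.36 (SE 0.23, adjusted p = 0.293), and 0.10 without K2. In TPM every cKO nerve (466 to 585 TPM) was above every WT nerve (344 to 432 TPM). On log2(TPM + 1) *Rplp1* did not pass (0.43, limma, adjusted p = 0.191). *Rplp2* was at 99.0, 69.5, 75.9 and 77.7 CPM in cKO nerves, against 72.9, 74.2, 59.5 and 82.5 CPM in WT nerves. Its log2 fold change was 0.16 (SE 0.12, adjusted p = 0.392). It passed on log2(FPKM + 1) (0.36, limma, adjusted p = 0.0198) but not on log2(TPM + 1) (0.33, limma, adjusted p = 0.398). All 3 stalk mRNAs lay below the median of the members, *Rplp0* by the most of any large subunit gene (−0.38 on the log2 scale). Whether they differed from the other members was not tested.

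The other members that did not pass were *Rpl41*, *Rpl3*, *Rpl36*, *Rps10*, *Rps26*, *Rps16*, *Rps27l* and *Rps4l*. *Rpl41* had a log2 fold change of 0.26 (SE 0.11, adjusted p = 0.101), and *Rpl3*, which shapes the peptidyl transferase center, one of 0.16 (SE 0.08, adjusted p = 0.153). *Rps10* and *Rps26*, both near the mRNA channel, had values of 0.36 (SE 0.16, adjusted p = 0.135) and 0.32 (SE 0.17, adjusted p = 0.206). *Rpl41* passed without cKO L1 (0.35, adjusted p = 0.0192) and *Rps26* without cKO K2 (0.45, adjusted p = 0.0290). *Rps10* did not overlap in TPM (170 to 185 TPM in cKO and 119 to 143 TPM in WT nerves). On log2(FPKM + 1) *Rps10*, *Rpl41* and *Rpl3* passed (0.48, 0.40 and 0.32, limma, adjusted p = 0.0236, 0.0311 and 0.0209). None of them passed on log2(TPM + 1) (limma, adjusted p = 0.169, 0.283 and 0.483). *Rpl36* was at 0.24 (SE 0.23, adjusted p = 0.494), and at −0.028 without cKO K2.

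*Rps16* was set apart by its spread. It was at 26.9, 173, 210 and 213 CPM in cKO nerves K2, L1, L5 and L8, against 98.8, 84.9, 155 and 173 CPM in WT nerves K1, L3, L4 and L9. K2, the highest nerve for most members, was the lowest of all 8 for *Rps16*. The fitted difference on the log2 scale was 0.28 (SE 0.62, adjusted p = 0.787), and without K2 it was 0.63 and did not pass (adjusted p = 0.153).

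*Rps29*, a small zinc-binding protein of the small subunit, was at 196 to 266 CPM in cKO and 164 to 193 CPM in WT nerves, a change of 0.35 (SE 0.10, adjusted p = 0.0174). The call was lost without WT K1 (0.33, adjusted p = 0.0539) or WT L4 (0.31, adjusted p = 0.0582), with the nerves named L alone (0.25, adjusted p = 0.0595) and on log2(TPM + 1) (0.47, limma, adjusted p = 0.144).

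Of the paralogs *Rps27* and *Rps27l*, the first was called and the second was not. *Rps27*, a zinc-finger protein at the rim of the small subunit, was at 373, 192, 231 and 217 CPM in cKO nerves, against 147, 173, 132 and 146 CPM in WT nerves, with no overlap. It changed by 0.76 (SE 0.19, adjusted p = 0.0166), a call that was lost without WT L4 (0.70, adjusted p = 0.0565) and without the filter on low counts (0.75, adjusted p = 0.0783). *Rps27l*, a p53-induced form in human cells, was at 28.9, 28, 31.4 and 30.1 CPM in cKO nerves, against 27.4, 28.2, 26.6 and 32.1 CPM in WT nerves, a log2 fold change of 0.05 (SE 0.09, adjusted p = 0.726). The difference between the paralogs was not tested.

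**Figure D2:**
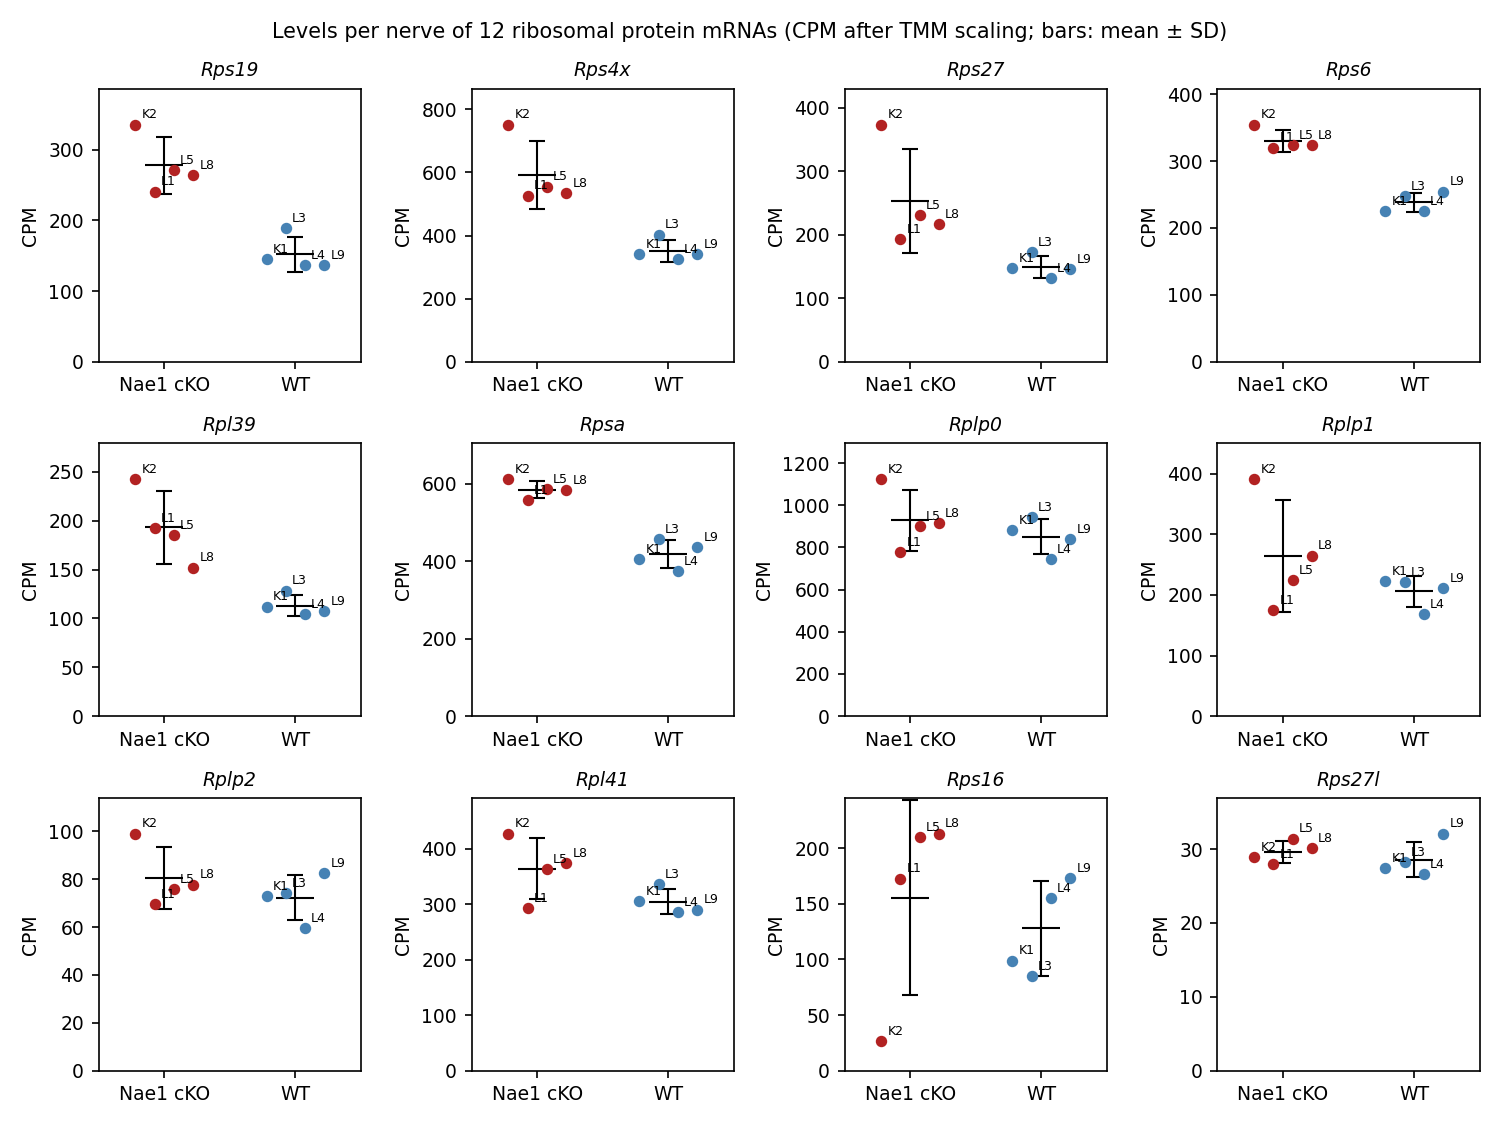
CPM after TMM scaling of 12 ribosomal protein mRNAs in each nerve (points, with the nerve's name; bars, mean ± SD of 4 nerves), Nae1 cKO left and WT right in each panel. The groups are apart for Rps19, Rps4x, Rps27, Rps6, Rpl39 and Rpsa and overlap for the stalk genes, Rpl41, Rps16 and Rps27l.

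Reads of ribosomal protein genes can be shared with their many processed copies. Near-identical copies (at least 95% identity over at least 150 bases and 50% of the copy) were found for 74 members, 587 in all, of which 575 are annotated as pseudogenes and 465 had a count above 0. Their share of a member's summed counts was over 10% for 2 tested members, *Rps13* (19.3%, mostly *Rps13-ps1*) and *Rpl35* (18.8%, *Gm2000*). It was 7.90% for *Rpl41*, 5.91% for *Rps15a* and 5.77% for *Rps7*. These shares come from counts already divided among genes. Levels of these 5 and of other members with copies are therefore uncertain by an amount that the shares do not bound.

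Adding the copies' counts to the members left 67 called higher and 0 lower, with a median of 0.50. Over all genes 14.1% were then called higher. *Rps13* was at 80.3, 87.2, 87.6 and 89.4 CPM in cKO nerves, against 49.4, 65.5, 64.7 and 72.2 CPM in WT nerves. The groups did not overlap in CPM but did in TPM, and its change was 0.45 (SE 0.11, adjusted p = 0.0073) alone and 0.42 (adjusted p = 0.0018) with its copies. On log2(TPM + 1) it did not pass (0.61, limma, adjusted p = 0.0956). *Rpl35* changed by 0.59 (SE 0.11, adjusted p = 0.0014) alone and 0.58 (adjusted p = 0.0024) with them.

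Summed over all members, ribosomal protein mRNA took 2.70, 2.23, 2.35 and 2.35% of the expected counts in cKO nerves K2, L1, L5 and L8, against 1.49, 1.77, 1.41 and 1.53% in WT nerves K1, L3, L4 and L9. The means were 2.41 ± 0.204% in cKO and 1.55 ± 0.156% in WT nerves (SD, n = 4 each), a ratio of 1.55. The lowest cKO nerve was above the highest WT nerve. As a share of TPM the means were 3.01 ± 0.384% in cKO and 1.94 ± 0.211% in WT nerves. As a share of protein-coding TPM they were 12.1 ± 1.41% in cKO and 8.17 ± 0.77% in WT nerves. On that scale K2 was the highest cKO nerve (14.1%) and L1 the lowest (10.9%).

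**Figure D3:**
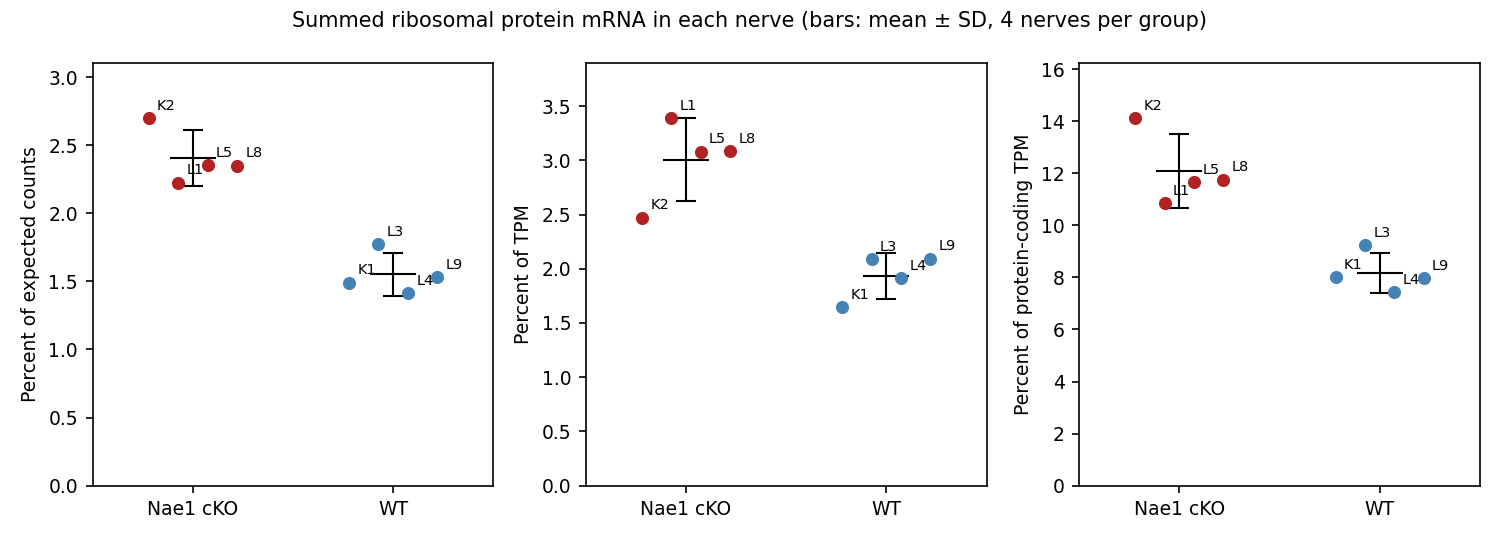
Percent of expected counts, of TPM and of protein-coding TPM taken by the 82 ribosomal protein genes in each nerve (points, with the nerve's name; bars, mean ± SD), Nae1 cKO left and WT right. The groups are apart on all 3 scales. K2 is the highest cKO nerve by counts and by protein-coding TPM and the lowest by TPM over all genes.

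Members moved together from nerve to nerve within a genotype as well. In CPM, K2 was the highest of the cKO nerves for 69 of 78 members and L1 the lowest for 65. Among WT nerves L3 was the highest for 64 and L4 the lowest for 65. In TPM the order of the cKO nerves turned round: L1 was the highest for 65 members and K2 the lowest for 72.

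Library makeup also differed between nerves. In K2 noncoding genes took 82.5% of TPM, above 68.8 to 73.8% in the other cKO nerves and 73.8 to 79.5% in WT nerves, and 5 abundant noncoding RNAs (*mt-Rnr2*, *Rn7sk*, *Malat1*, *Rn7s1* and *Rn7s2*) took 19.9% of its counts, 12.7 to 14.3% in the other cKO nerves and 15.8 to 18.9% in WT nerves. Among WT nerves both shares were highest in K1 and lowest in L9. In CPM L3 was the highest WT nerve for most members and L4 the lowest. In TPM K1 was the lowest WT nerve for 73 members, and L3 and L9 were each the highest for 39. Mitochondrial genes took 1.54% of counts in K2, 3.08 to 3.13% in the other cKO nerves and 2.19 to 4.23% in WT nerves. Without mitochondrial genes and these RNAs the test gave 67 higher and 0 lower, beside 14.2% of all genes called higher. That fit kept 17070 of the 17090 genes, so it was nearly the same fit and does not test library makeup. The part of library makeup in the order of the nerves was not tested.

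**Figure D4:**
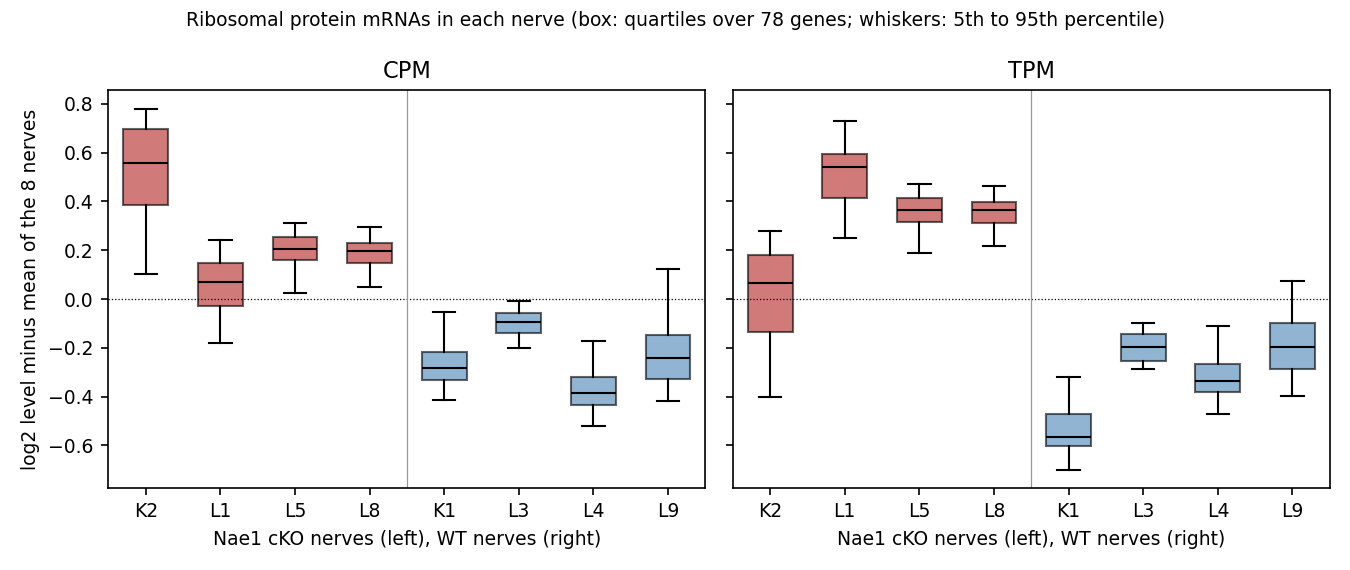
Log2 level of the 78 ribosomal protein genes in each nerve minus the gene's mean over the 8 nerves, in CPM (left) and TPM (right); boxes are quartiles over genes and whiskers the 5th to 95th percentiles, Nae1 cKO nerves left of WT nerves. K2 is highest in CPM and lowest of the cKO nerves in TPM, and WT medians are below all cKO medians on both scales.

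Ribosome components outside the name rule were also mostly higher. Of 7 tested, 5 were higher and 0 lower, with a median of 0.53, beside 14.1% of all genes called higher and 12.3% lower. *Rack1*, a scaffold protein of the small subunit, was at 683, 472, 540 and 531 CPM in cKO nerves, against 325, 400, 302 and 312 CPM in WT nerves, a change of 0.73 (SE 0.12, adjusted p = 0.00084). *Rps3a1* changed by 0.63, *Rpl22l1* by 0.58 and *Rpl36al* by 0.37, all called. *Fau* (0.46, adjusted p = 0.0909) and *Rpl7l1* (−0.01, adjusted p = 0.971) did not pass.

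Other TOP mRNAs were also more often higher than lower. Of 22 genes for elongation factors and other TOP mRNAs, 11 were higher and 0 lower, with a median of 0.33 (0.22 without cKO K2). Among all genes, 14.1% were called higher and 12.3% lower. *Eef1a1*, which delivers aminoacyl-tRNA to the ribosome, was at 6906, 4899, 5606 and 5613 CPM in cKO nerves, against 3854, 4362, 3737 and 4164 CPM in WT nerves, a change of 0.51 (SE 0.11, adjusted p = 0.0036). Its partners *Eef1g* and *Eef1b2* changed by 0.52 and 0.48, both called. *Slc25a5*, an ADP/ATP carrier of mitochondria, changed by 1.0 (SE 0.09, adjusted p = 8.2e-06). *Eef2*, which moves the ribosome along the mRNA, was at 1244 ± 153 CPM in cKO and 1135 ± 23.8 CPM in WT nerves (SD, n = 4 each; 0.13, adjusted p = 0.325).

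Among 11 noncoding snoRNA hosts, 4 were higher and 0 lower, with a median of 0.45, beside 14.1% of all genes called higher and 12.3% lower. *Snhg5* was at 31.3, 30.2, 28.1 and 24.4 CPM in cKO nerves, against 16.3, 17.7, 16 and 15.9 CPM in WT nerves, a change of 0.79 (SE 0.10, adjusted p = 0.00014). *Snhg1*, *Snhg6* and *Epb41l4aos* changed by 0.76, 0.76 and 0.92, all called. *Gas5*, the host best known as a TOP transcript, did not pass (−0.02, SE 0.08, adjusted p = 0.888).

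Initiation factors, which load the small subunit onto mRNA, gave few calls, beside 14.1% of all genes called higher and 12.3% lower. Of 26 initiation factors 1 was higher (*Eif3i*, 0.36) and 3 lower (*Eif1*, *Eif3j1* and *Eif4g2*), with a median of 0.05, and 3 were higher and 3 lower without cKO K2. *Eif1*, which guards start codon choice, was at 118, 93.5, 100 and 107 CPM in cKO nerves, against 212, 209, 278 and 178 CPM in WT nerves, a change of −1.07 (SE 0.13, adjusted p = 7.6e-05). Of 10 factors of nonsense-mediated decay, which removes faulty mRNAs and also limits several snoRNA hosts, 0 were higher and 1 was lower (*Upf3a*, −0.38).

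Counts of genes for the production of ribosomes stand beside 14.1% of all genes called higher and 12.3% called lower. Of 18 genes for ribosomal RNA synthesis 3 were higher (*Polr1c*, *Taf1d* and *Rrn3*, 0.22 to 0.45) and 1 was lower, *Ubtf*, the activator of ribosomal DNA transcription, at 86.4 ± 9.47 CPM in cKO and 116 ± 4.86 CPM in WT nerves (−0.43, SE 0.09, adjusted p = 0.0032). Of 57 genes for ribosomal RNA processing and ribosome assembly 3 were higher (*Nhp2*, *Gnl3* and *Mdn1*, 0.30 to 0.75) and 0 lower, with a median of 0.12. Without cKO K2 these became 15 and 1, while 15.7% of all genes were called higher. Ribosomal RNA itself was depleted before sequencing and was not analysed here.

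Kinases and regulators that act on ribosomal proteins or TOP mRNAs had 3 higher, 1 lower and 9 not passed of 13. Among all genes, 14.1% were called higher and 12.3% lower. *Rps6ka2*, a kinase of ribosomal protein S6, was at 37.8, 36.5, 38.7 and 41.3 CPM in cKO nerves, against 90.0, 84.1, 87.2 and 77.9 CPM in WT nerves, with no overlap (−1.14, SE 0.08, adjusted p = 1.2e-06). Its relative *Rps6ka3* changed by 0.46, and *Eif4ebp1*, an inhibitor of cap-dependent translation, by 0.75. *Rps6kb1*, the S6 kinase downstream of mTOR, was at −0.08 (adjusted p = 0.526), and *Larp1* at −0.12 (adjusted p = 0.588).

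Mitochondrial ribosomal proteins build the separate ribosome of mitochondria and are not TOP mRNAs as a class. Of 78 genes 4 were higher (*Mrpl33*, *Mrpl44*, *Mrps9* and *Mrps18a*) and 2 lower (*Mrpl36* and *Mrpl43*), beside 14.1 and 12.3% of all genes. The other 72 did not pass, and the median was −0.03. Without cKO K2, 4 were higher and 4 lower. Their summed level was 1293 to 1380 CPM in cKO nerves and 1275 to 1411 CPM in WT nerves. The cytosolic members summed to 20097 to 27667 CPM in cKO nerves and 14926 to 18103 CPM in WT nerves. The difference between these lists was not tested.

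**Figure D5:**
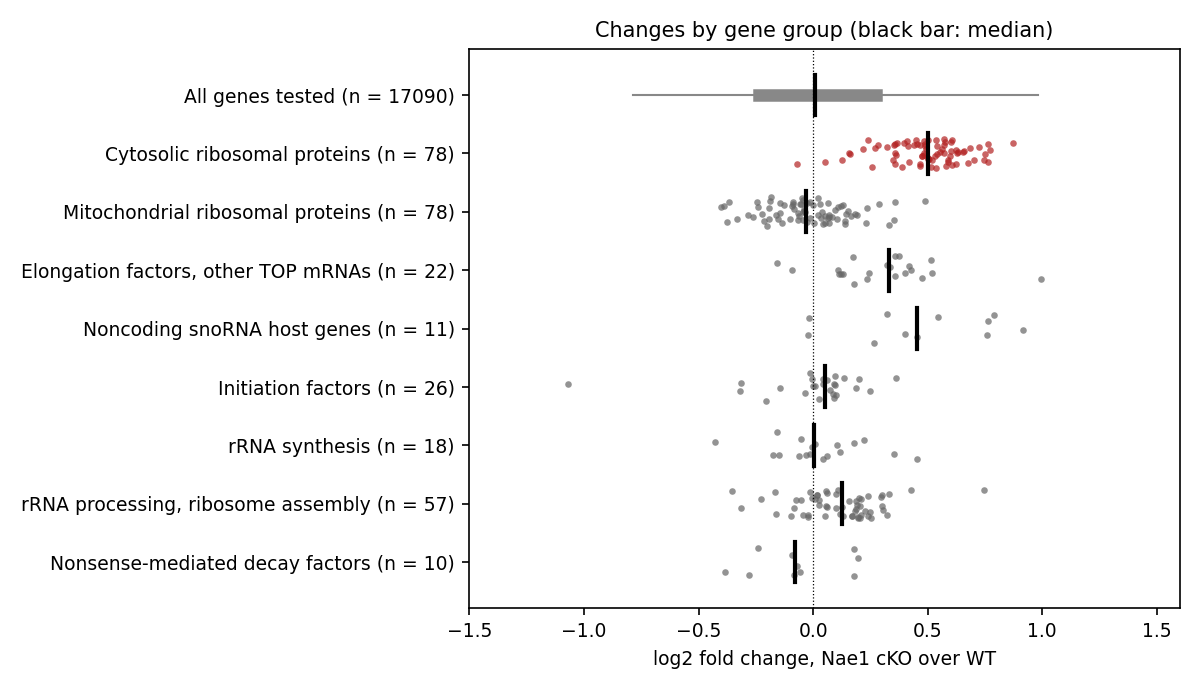
Log2 fold changes (Nae1 cKO over WT) by gene group; points are genes, the black bars medians, and for all 17090 genes tested the thick bar spans the quartiles and the line the 5th to 95th percentiles. The cytosolic ribosomal proteins center on 0.50, other TOP mRNAs and snoRNA hosts on 0.33 and 0.45, and the remaining groups near 0.

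Macrophage and mitosis markers, many of them higher in cKO nerves, ordered the cKO nerves differently from each other. The mitosis sum was lowest in K2 among cKO nerves (960 CPM) and highest in L1 (1778 CPM). For most members K2 was the highest and L1 the lowest cKO nerve in CPM. In TPM the order was the other way, with L1 the highest for 65 members and K2 the lowest for 72. The macrophage sum was highest in K2 (595 CPM) and 457 to 476 CPM in the other cKO nerves. The part of either in the higher level of ribosomal protein mRNA was not tested.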

How the data were processed

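Sciatic nerve RNA (TruSeq Stranded Total RNA, ribosomal RNA depleted) of 4 *Nae1* cKO and 4 WT mice was analysed from gene tables that the authors deposited. They hold expected counts (RSEM's estimated, unscaled fragments per gene), and TPM and FPKM, both scaled by the authors for length and library size. By the submitters' processing notes, reads were checked with FastQC 0.11.5 and handled with STAR and RSEM on GRCm38, while the published methods name TopHat and Cuff-diff. The annotation release is not given in the sources used here. Coordinates and gene types came from GENCODE vM21, which matched 52489 genes. RSEM divides reads that fit several genes by estimated abundance, so members and near-identical copies (BLAST 2.17.0) are not fully separated.

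Rounded expected counts were filtered with filterByExpr, scaled by TMM and compared over all 8 nerves with edgeR 4.0.16 (quasi-likelihood, robust, no covariates; R 4.3.3), with Benjamini-Hochberg adjustment. The common biological coefficient of variation was 0.158. Alternatives used other scalings, filters, TPM and FPKM (limma 3.58.1, pseudocounts 1 and 0.1), DESeq2 1.42.0, summed copies, the letter of the sample names and left-out nerves. TPM rescaled over protein-coding genes was added after seeing the data. Symbols with 2 identifiers were counted once. Counting error only is covered by the limit of 3 counts given for a count of 0.

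Members, lists and tests were chosen with earlier results of these data known. Named members were the 8 with the smallest adjusted p, the 3 highest and 3 lowest in mean TPM, stalk proteins, *Rpsa*, *Rps6*, *Rps27a*, *Rpl5*, *Rpl11*, *Rps19*, paralogs with their partners, members with a nerve far from the others, and those with the largest share in copies. From other lists, up to 4 genes with the smallest adjusted p were named. Members and list genes that did not pass, and *Eef2*, *Gas5*, *Rps6kb1* and *Larp1*, were named after their values were seen. Values of 2 genes and the name of the Cre driver are not reported here.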

Additional observations from a re-analysis of the deposited data

Results flagged for a closer look

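In groups of 4 nerves, the highest or lowest nerve was compared with the others by its gap to the nearest value as a share of the range (Dixon's limit for 4 values, which chance passes in about 1 of 20 groups). Of 154 groups (77 members in each genotype) 16 passed, and 15 of these were cKO K2 above the other cKO nerves. In CPM, K2 was at 558 for *Rpl10*, 364 for *Rpl12*, 404 for *Rpl13*, 434 for *Rpl26*, 353 for *Rpl27a*, 394 for *Rpl32*, 191 for *Rpl34*, 194 for *Rpl35*, 179 for *Rpl36a*, 452 for *Rpl9*, 164 for *Rps10*, 278 for *Rps15a*, 310.0 for *Rps25*, 752 for *Rps4x* and 355 for *Rps6*. The other cKO nerves were at 390.0 to 418 CPM for *Rpl10* and at 526 to 555 CPM for *Rps4x*. The members share the library, so these are not separate observations. The remaining 1 was WT L3, at 189 CPM for *Rps19*, with the other WT nerves at 137 to 145 CPM.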

How the results depend on the processing

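No member was called lower in any of the alternatives run. The number called higher was 67 of 78. It stayed between 45 (limma on log2(TPM + 1)) and 71 (limma on log2(FPKM + 1) and log2(FPKM + 0.1)). The exceptions were 19 of 79 without WT K1 and L4, where only 2 WT nerves remain, and 0 with a limit of 2-fold. Of all genes, 7.59% were called higher on log2(TPM + 1), 19.7% on log2(FPKM + 1) and 19.5% on log2(FPKM + 0.1). The main fit called 14.1% of all genes higher. With each nerve left out in turn, 54 (without WT L4) to 68 (without cKO L1) members were called higher. Of all genes, 11.4% and 11.9% were called higher in those fits. The median log2 fold change of the members ran over 0.42 to 0.56. In all, 54 members passed in each of the fits with 1 nerve left out, a count that was not made over all genes. Letter L nerves alone gave 58, beside 14% of all genes, and the letter as a term 69, beside 16.4%.

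With library totals as the scaling, the median of all genes moved to 0.16 and that of the members was 0.65. There 70 members were called higher, beside 22.7% of all genes. That scaling made 75.5% of all calls higher, against 53.5% with TMM, and log2(TPM + 1), log2(FPKM + 1), log2(FPKM + 0.1) and coding TPM made 75.4, 76.4, 76.4 and 64.4%. The difference in share, cKO minus WT, was 0.86 percentage points of counts, 1.07 of TPM and 3.92 of protein-coding TPM.

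Of 987 values of 38 named members under alternatives, 932 kept direction and side of the threshold and 9 changed sign, all in members that did not pass. *Rps16* was at −0.021 with limma-voom, and *Rps27l* at −0.032 without WT K1 and L4. *Rpl36* ran over −0.028 to 0.36 with each nerve left out. *Rps4l* was at 0.081 with library totals, 0.038 on log2(TPM + 1), 0.068 on log2(FPKM + 1), 0.072 on log2(FPKM + 0.1) and −0.19 to 0.057 with each nerve left out. The causes were not tested. No paired analysis was possible because the genotypes share no replicate number.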
